A study of Mus musculus with 18 samples.

Results

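Mouse embryonic stem cells labelled as lacking all 6 Pcgf genes (Pcgf-6KO, genotype Pcgf1/2/3/4/5/6-/-) were compared with wild-type cells (WT) across all expressed genes. The comparison was set by the sample labels and sets 3 Pcgf-6KO libraries against 3 WT libraries, of the 18 of the series. Of 56551 genes in the deposited table, 17842 reached 1 TPM (a transcript share scaled to one fixed total per library) in at least 3 of the 18 libraries and were tested. Pcgf-4KO cells, labelled Pcgf1/3/5/6-/-, and cells labelled as lacking Ring1a and Ring1b (Ring1a/b-dKO), 3 libraries each, show where Pcgf-6KO differed. The remaining groups, labelled Ring1a-KO and Ring1b-KO, also 3 libraries each, are used for positions in the genome. All 18 libraries entered the filter and the fit. The labels give no parental line, clone, way of deletion or time after it, and no word on separate cultures. The spread behind each p-value is thus that between libraries of a group, pooled over all 18, which may be technical. Pcgf-6KO varied most, with a median SD of log2(TPM + 1) of 0.151 against 0.083 to 0.114 in the other groups. Depth is unknown, since TPM holds no counts of reads.

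The Polycomb complex PRC1 places ubiquitin on histone H2A and helps to hold developmental genes silent in embryonic stem cells. Each complex pairs a catalytic Ring1a or Ring1b subunit with a single Pcgf protein, which decides the other partners. Pcgf2 and Pcgf4 (the product of Bmi1) form canonical complexes with Cbx and Phc proteins, which read the histone mark left by PRC2 and compact chromatin. The remaining Pcgf proteins form variant complexes with Rybp or Yaf2, and the Pcgf6 complex, which holds E2f6 and the Mga/Max heterodimer, is known for silencing germline genes.

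Most genes tested differed between Pcgf-6KO and WT, and rises outnumbered falls. At an adjusted p under 0.05 (limma, log2 of TPM + 1, Benjamini-Hochberg adjustment), 9216 genes (51.7%) were called higher and 4020 (22.5%) lower. At least 2-fold changes were called in 4222 genes (23.7%) upward and 1105 (6.19%) downward, at least 4-fold changes in 1257 and 224, and at least 16-fold changes in 85 and 10. The median log2 change of all genes tested was 0.33 on the deposited TPM scale, 0.04 after median ratio scaling and -0.06 after quantile normalization. The share of calls that were upward was accordingly 69.6%, 52.1% and 46.6%, so the excess of rises depends on the scaling, and small changes are read against that shift. Genes tested at a mean under 1 TPM in WT numbered 3622, and each needed at least 1 knockout library at 1 TPM to pass the filter (2938 would pass without the Pcgf-6KO libraries). They had a median change of 0.91, 71% were called higher and 1.82% lower, so a count of rises among them carries little information. Among the 14220 genes at 1 TPM or more in WT, the median was 0.19, with 46.7% called higher and 27.8% lower (18.2% and 7.77% at least 2-fold), and gene lists are read against these values. The 3 libraries of each group did not overlap, with Pcgf-6KO above, for 51.3% of all genes tested, and with Pcgf-6KO below for 22.7%. A set of 323 genes stayed under 0.1 TPM in every WT library and reached 1 TPM or more in every Pcgf-6KO library, and 11 genes showed the reverse. Libraries of Pcgf-6KO held 16236 to 16585 genes at 1 TPM or more against 14207 to 14225 in WT, and mitochondrially encoded genes took 3.58% to 4.65% of TPM against 6.38% to 6.88%.

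The 6 targeted genes did not move together at the level of the whole transcript. Pcgf6 was at 52.9, 52.8 and 53.3 TPM in the WT libraries and at 11, 11.15 and 9.73 TPM in Pcgf-6KO. Pcgf2 was at 72.8, 63.5 and 69.4 TPM in WT and at 17.9, 15.4 and 17.03 TPM in Pcgf-6KO. Pcgf1 was at 11.4, 11.6 and 9.79 TPM in WT and at 2.16, 4.28 and 2.66 TPM in Pcgf-6KO. These 3 genes fell without overlap between the libraries, by 2.22 ± 0.06, 1.97 ± 0.07 and 1.60 ± 0.27 on the log2 scale (estimate ± SE, limma adjusted p = 3.04e-14, 8.81e-13 and 7.8e-05). Bmi1 was at 1.43, 0.88 and 2.5 TPM in WT and at 14.3, 16.1 and 16.3 TPM in Pcgf-6KO. Pcgf5 was at 9.53, 10.1 and 9.01 TPM in WT and at 23.2, 22.04 and 21.04 TPM in Pcgf-6KO. Both were higher in every Pcgf-6KO library than in any WT library (2.72 ± 0.19 and 1.13 ± 0.08, limma adjusted p = 3.12e-09 and 2.08e-09). Pcgf3 was at 13.4, 12.7 and 13.5 TPM in WT and at 10.2, 11.9 and 15.1 TPM in Pcgf-6KO, with overlapping libraries and no call on the deposited scale (limma adjusted p = 0.431), though it was called lower with quantile normalization and by median ratio scaling. Removal of an exon cannot be read from TPM of a whole gene, so the levels of Bmi1, Pcgf5 and Pcgf3 do not test the label, and Pcgf-6KO stands for the libraries so labelled.

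**Figure D1:**
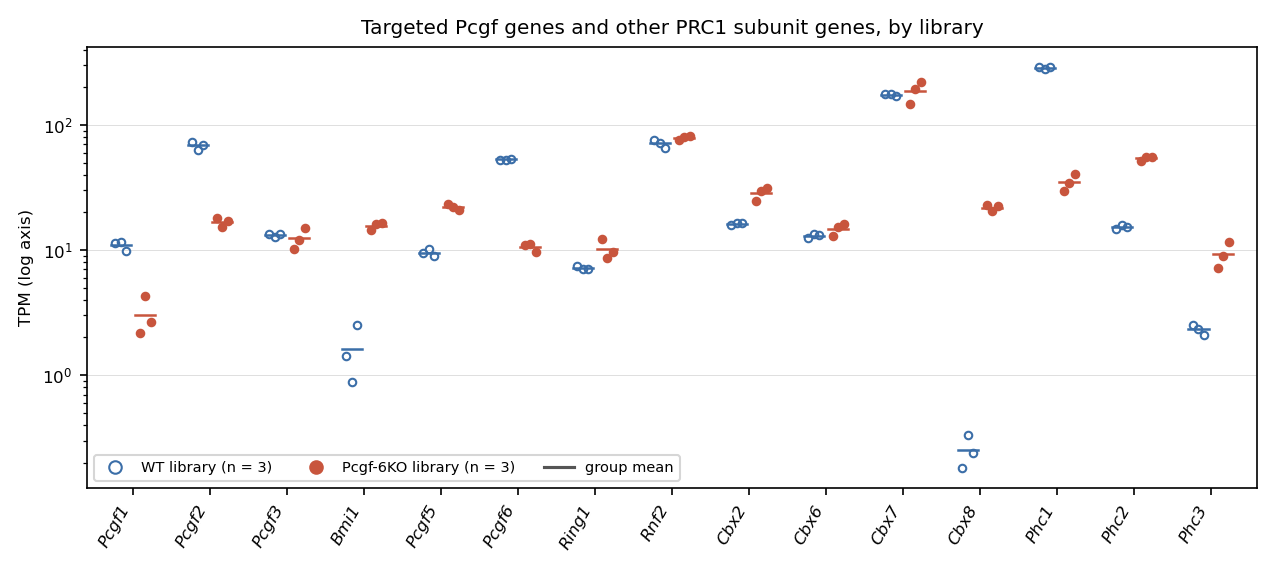
TPM of the targeted Pcgf genes and of other PRC1 subunit genes on a log axis, with 1 point per library (3 WT, open, and 3 Pcgf-6KO, filled) and a bar at each group mean. Pcgf1, Pcgf2, Pcgf6 and Phc1 lie lower in every Pcgf-6KO library, and Bmi1, Pcgf5, Ring1, Cbx2, Cbx8, Phc2 and Phc3 lie higher.

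Among the partners of the Pcgf proteins, the catalytic subunit gene Ring1 was at 7.42, 7.1 and 7.11 TPM in WT and at 12.3, 8.69 and 9.71 TPM in Pcgf-6KO. The groups did not overlap, and the gene was not called over all 18 libraries (log2 change 0.44 ± 0.28, limma adjusted p = 0.165) but called higher in a fit of the 6 libraries alone (limma adjusted p = 0.0216). Rnf2, at 71.3 ± 5.24 and 79 ± 2.81 TPM, was not called (limma adjusted p = 0.107), and it was called lower under median ratio scaling. Of 8 genes of canonical complexes at 1 TPM or more in WT, 4 were called higher and 1 lower, and 4 and 3 under both median ratio scaling and quantile normalization. Phc1, the most abundant of the Phc genes in WT, was at 289, 281 and 290.4 TPM in WT and at 29.9, 34.6 and 40.9 TPM in Pcgf-6KO (limma adjusted p = 3.58e-14). Phc2 went the other way, from 15.3 ± 0.55 to 54.2 ± 2.3 TPM (mean ± SD, n = 3), and Phc3 from 2.33 ± 0.21 to 9.26 ± 2.24 TPM. Cbx8, a reader of the PRC2 mark, was at 0.18, 0.33 and 0.24 TPM in WT and at 22.8, 20.4 and 22.4 TPM in Pcgf-6KO (4.19 ± 0.17, limma adjusted p = 4.46e-12). Cbx2 rose from 16.3 ± 0.40 to 28.6 ± 3.41 TPM, while Cbx7, the most abundant of the canonical Cbx genes in WT at 175 ± 3.69 TPM, was not called (187 ± 36.7 TPM in Pcgf-6KO). Among all genes tested, 51.7% were called higher and 22.5% lower. Variant complex genes were called higher in 9 of 23 cases and lower in 8, a balance that moved to 5 and 13 under median ratio scaling. The larger rises were in Bcor and Bcorl1, partners of Pcgf1 (14.3 ± 0.60 to 97 ± 18.6 TPM and 0.83 ± 0.29 to 10.3 ± 2.57 TPM), in Yaf2, and in E2f6 (19.3 ± 0.49 to 45.5 ± 0.91 TPM). Cbx3, which binds heterochromatin and is part of the Pcgf6 complex, fell from 202 ± 5.08 to 87.4 ± 1.39 TPM. Of 12 PRC2 subunit genes 4 were called higher and 6 lower, among them Jarid2, at 186, 194 and 193 TPM in WT and at 78.7, 90.0 and 105 TPM in Pcgf-6KO. The methyltransferase gene Ezh2 fell from 99.6 ± 5.27 to 67.6 ± 2.67 TPM and its paralog Ezh1 rose from 18.5 ± 1.66 to 26.9 ± 3.25 TPM.

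Germline genes are the known targets of the Pcgf6 complex, and the E-box CACGTG is the sequence bound by Mga/Max and related factors. The promoters of 4 germline genes with this E-box and the largest rises are shown, as the 250 bases before the annotated start (RefSeq, GRCm38.p6, strand of the gene, 5′ to 3′). Capitals mark CACGTG and, in Mael, TCCCGC, a core of E2F sites.
Taf7l (chrX:134476491-134476740, minus strand): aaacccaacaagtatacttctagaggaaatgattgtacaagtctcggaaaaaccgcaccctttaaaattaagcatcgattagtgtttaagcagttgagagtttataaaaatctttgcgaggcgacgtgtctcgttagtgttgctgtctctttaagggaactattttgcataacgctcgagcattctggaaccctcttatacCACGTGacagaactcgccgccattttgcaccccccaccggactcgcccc
Fkbp6 (chr5:135350045-135350294, minus strand): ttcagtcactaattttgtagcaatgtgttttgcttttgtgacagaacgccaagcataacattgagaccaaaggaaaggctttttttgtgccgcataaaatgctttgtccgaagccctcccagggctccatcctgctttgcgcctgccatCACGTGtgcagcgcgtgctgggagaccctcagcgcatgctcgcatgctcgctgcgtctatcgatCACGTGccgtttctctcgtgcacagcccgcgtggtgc
Mael (chr1:166238745-166238994, minus strand): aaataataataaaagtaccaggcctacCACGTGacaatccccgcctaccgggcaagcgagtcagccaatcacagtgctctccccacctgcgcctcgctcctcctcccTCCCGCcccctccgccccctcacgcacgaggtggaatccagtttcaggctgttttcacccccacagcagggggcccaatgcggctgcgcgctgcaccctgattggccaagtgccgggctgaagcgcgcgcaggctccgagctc
Mov10l1 (chr15:88982744-88982993, plus strand): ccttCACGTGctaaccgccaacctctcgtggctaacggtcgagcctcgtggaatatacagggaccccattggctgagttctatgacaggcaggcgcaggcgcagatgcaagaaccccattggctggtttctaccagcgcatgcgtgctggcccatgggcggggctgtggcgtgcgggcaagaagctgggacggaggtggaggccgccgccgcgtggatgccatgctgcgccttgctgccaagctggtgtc
The E-box lay 49 bases before the start in Taf7l, 37 and 101 in Fkbp6, 223 in Mael and 246 in Mov10l1, so its position was not shared.

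Transcripts of these genes were scarce in WT and abundant in Pcgf-6KO. Taf7l, a testis-specific TFIID subunit gene, was at 0.94, 1.02 and 1.03 TPM in WT and at 109, 107 and 117 TPM in Pcgf-6KO (log2 change 5.81 ± 0.08, limma adjusted p = 4.24e-17). Fkbp6 (ENSMUSG00000040013), needed for synapsis and for piRNA loading, was at 0.30, 0.41 and 0.11 TPM in WT and at 60.5, 60.4 and 64.3 TPM in Pcgf-6KO (5.63 ± 0.09, limma adjusted p = 1.29e-16). The piRNA pathway genes Mael and Mov10l1 rose by 4.53 and 3.56 on the log2 scale. Other germline genes with large rises were Tex101, a sperm surface protein gene (0.66 ± 0.46 to 71.2 ± 1.78 TPM), and Mageb4 (0.28 ± 0.017 to 46.1 ± 3.1 TPM). The groups did not overlap for any of these genes.

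Over the germline and meiosis list, 71 genes were tested and 45 were at 1 TPM or more in WT. Of these 45, 33 were called higher, 9 lower and 3 not at all, with a median log2 change of 1.48 against 0.19 for all genes at that level, and with a median of 1.14 under median ratio scaling. The falls included the zona pellucida gene Zp3 (18.3 ± 0.45 to 8.16 ± 0.41 TPM), Usp26 (33.5 ± 1.11 to 8.99 ± 1.66 TPM), Pld6, a nuclease of piRNA production, and Prdm1, a repressor that specifies primordial germ cells, so the list held genes that moved in both directions. A promoter window was at hand for 60 of the 71 genes. CACGTG, searched on both strands (it reads the same on each), was in 17 of 35 windows of germline genes called at least 2-fold higher (48.6%, 95% Wilson interval 33% to 64.4%) in 1 of 11 of those called higher by less (9.09%, 1.62% to 37.7%) and in 2 of 14 of those called lower or not called (14.3%, 4.01% to 39.9%). Over all 60 windows the share was 33.3%. Among germline genes at 1 TPM or more in WT, a split made after the values were seen, it was in 11 of 23 windows of those called at least 2-fold higher (47.8%, 29.2% to 67%) and in 2 of 16 of the rest (12.5%, 3.5% to 36%). It was in 6.04% of all 27025 RefSeq windows of that length and in 9.49% of the 10333 windows with 10 or more CG dinucleotides. The intervals take genes of a chosen list as independent draws, and the classes rest on calls of the same fit. They describe these windows only, and a part of the E-box in the rises was not tested. TCCCGC or its reverse complement GCGGGA was in 28.6% of the 35 windows of germline genes called at least 2-fold higher. It was in 45.5% of the 11 windows of those called higher by less and in 42.9% of the 14 of those called lower or not called. Of the RefSeq windows rich in CG, 37.2% held it. Only 78.9% of all tested protein-coding genes had a window, so no comparison with changed genes outside the list was made.

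Among the 15 largest rises, ranked without genes that have placeholder symbols such as Gm or Rik names, were keratin, trophoblast and germline genes. Trophoblast is the outer lineage of the embryo and forms much of the placenta. Cryab (ENSMUSG00000032060, GRCm38 chromosome 9, 50751325 to 50756636), a small heat shock protein gene, was at 3.47, 3.21 and 2.99 TPM in WT and at 830.3, 833 and 804 TPM in Pcgf-6KO (log2 change 7.61 ± 0.08, limma adjusted p = 1.87e-18). Hand1, a transcription factor gene of trophoblast giant cells and heart, was at 2.33, 2.73 and 2.29 TPM in WT and at 506, 530.0 and 538 TPM in Pcgf-6KO (7.25 ± 0.06, limma adjusted p = 6.02e-20). H19, an imprinted noncoding RNA gene, was at 0.46, 0.26 and 0.14 TPM in WT and at 461, 490.3 and 507 TPM in Pcgf-6KO. All WT libraries lay far below all Pcgf-6KO libraries for these 3 genes.

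A pair of keratin genes builds the filaments of simple epithelia. Krt18 (ENSMUSG00000023043, chromosome 15, 102028180 to 102032027) was at 33.4, 40.0 and 34.2 TPM in WT and at 2921, 2850 and 2819 TPM in Pcgf-6KO. Its partner Krt8 (ENSMUSG00000049382, chromosome 15, 101996698 to 102004482) was at 37.2, 37.5 and 35.4 TPM in WT and at 2229, 2262 and 2192 TPM in Pcgf-6KO. In WT the members of the pair were at about the same TPM, and in Pcgf-6KO Krt18 lay above Krt8 in every library. Krt7, a keratin gene of trophoblast and ducts, rose from 1.27 ± 0.15 to 102 ± 11.3 TPM, and Sbsn, a secreted epidermal protein gene, from 3.32 ± 0.20 to 279 ± 5.43 TPM. Other genes among the 15 largest rises were the placental homeobox gene Esx1 (1.38 ± 0.54 to 121 ± 3.52 TPM), Rhox13, the gluconeogenic gene Fbp2 (0.84 ± 0.062 to 84.3 ± 4.16 TPM) and the matrix protein gene Tinagl1. By absolute gain in TPM, a ranking made after the values were seen, the leading gene was Fabp3, a fatty acid carrier gene, which rose from 159 ± 4.08 to 4005 ± 228 TPM, followed by Krt18, Hspb1 (347 ± 2.05 to 2770 ± 117 TPM) and Krt8.

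**Figure D2:**
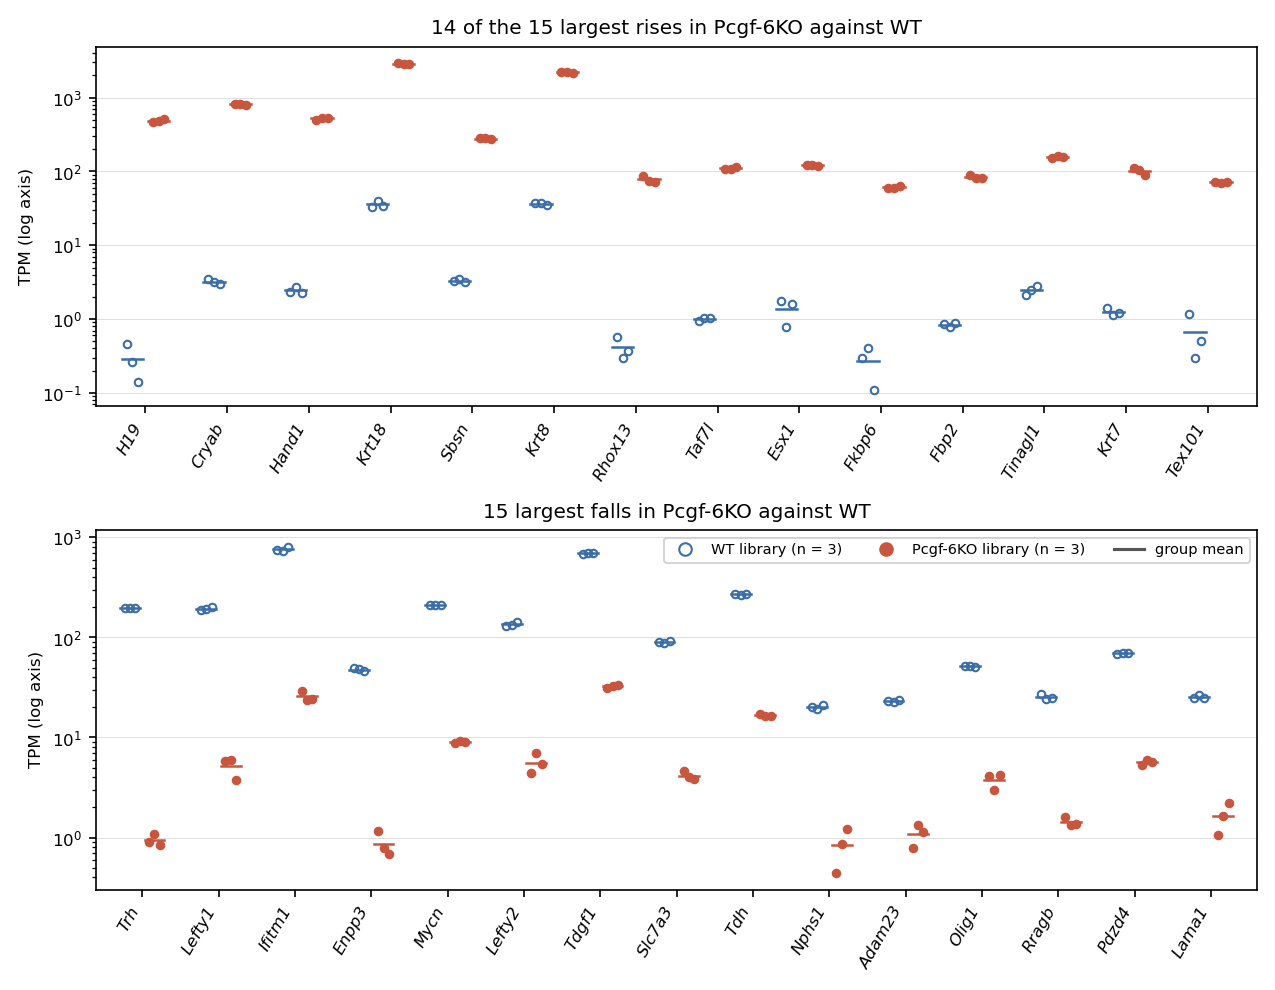
TPM on a log axis of 14 of the 15 genes with the largest called rises (top) and the 15 with the largest called falls (bottom) in Pcgf-6KO against WT, with 1 point per library and a bar at each group mean of 3. Genes with placeholder symbols were left out of the ranking. The libraries of the groups are apart for all genes shown, by the rule that chose them, and the spread within a group is small beside the gap between groups.

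Of 31 trophoblast genes tested, 22 were at 1 TPM or more in WT, and 20 of those were called higher, 1 lower and 1 not called. Their median log2 change was 3.51 (3.17 after median ratio scaling and 3.15 after quantile normalization), above that of any other list of which 5 or more members were at 1 TPM in WT. The lists share members. Krt8 and Krt18 count here and among endoderm and simple epithelial genes, and Krt18 also among formative and primed pluripotency genes. Igf2, an imprinted growth factor gene, was at 18.3, 18.8 and 20.0 TPM in WT and at 714, 738 and 752 TPM in Pcgf-6KO. Cdx2, a trophoblast and gut factor gene, rose from 0.15 ± 0.09 to 9.33 ± 0.87 TPM, and Gata2 from 0.86 ± 0.042 to 18.7 ± 3.44 TPM. The exception was Phlda2, an imprinted brake on placental growth, which fell from 169 ± 0.64 to 92.1 ± 6.21 TPM. The placental lactogen gene Prl3d1, the prolactin family genes Prl2c2 and Prl8a9, and Tpbpa, which mark differentiated trophoblast, did not reach 0.3 TPM as a mean in either group and were not tested.

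Of 24 genes of simple epithelia at that level in WT, 20 were called higher and 3 lower, with a median log2 change of 1.37. The tight junction gene Cldn4 was at 64.7, 64.5 and 67.98 TPM in WT and at 915, 911 and 875 TPM in Pcgf-6KO. Epcam, the adhesion gene that embryonic stem cells share with epithelia, fell from 269 ± 6.62 to 139.6 ± 2.13 TPM, and the splicing regulator gene Esrp1 also fell. Genes of stratified epithelia and epidermis were called higher in 16 and lower in 4 of 21 such members (median 1.59). Perp, a desmosome gene and p53 target, rose from 14.1 ± 1.51 to 314 ± 3.93 TPM, whereas Krt17 fell from 39.7 ± 0.99 to 11.6 ± 0.63 TPM and Gsta4 from 483 ± 13.4 to 95 ± 3.8 TPM. Annexin, S100 and galectin genes, which encode calcium and glycan binding proteins of membranes, were called higher in 17 and lower in 3 of 21. Lgals3 was at 7.02, 8.29 and 8.67 TPM in WT and at 406, 389.7 and 346 TPM in Pcgf-6KO, Anxa1 rose from 8.04 ± 0.54 to 349 ± 10.1 TPM and S100a6 from 100.2 ± 8.94 to 1544 ± 183 TPM.

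Among muscle contractile genes at 1 TPM or more in WT, 12 of 18 were called higher and 3 lower, with a median log2 change of 1.58 (12 and 6 with quantile normalization, median 1.15). Csrp1 rose from 49.1 ± 2.19 to 895 ± 11.5 TPM, Tpm1 from 145 ± 4.9 to 779.9 ± 33 TPM and Tagln from 16.4 ± 2.65 to 108 ± 7.44 TPM, all of which are also widely expressed in smooth muscle and spreading cells. The skeletal and atrial myosin genes Myh3 and Myl4 fell. Of 18 basement membrane genes at that level, 10 were called higher and 6 lower, and 8 and 8 under median ratio scaling. Of all genes at that level, 46.7% were called higher and 27.8% lower, so the counts set the list little apart. Col4a1 was at 7.55, 8.3 and 8.34 TPM in WT and at 113, 135 and 174 TPM in Pcgf-6KO, and Col4a2 followed it (2.8 ± 0.082 to 88.03 ± 14.8 TPM). The laminin chain gene Lama1, in contrast, was at 24.6, 26.8 and 24.97 TPM in WT and at 1.05, 1.65 and 2.22 TPM in Pcgf-6KO, and Col18a1 fell from 128 ± 0.64 to 44.1 ± 9.59 TPM. Among genes of epithelial to mesenchymal transition, Fn1 fell from 276 ± 3.44 to 78.6 ± 18.8 TPM and Vim from 67.2 ± 5.7 to 50.6 ± 4.62 TPM. Of 17 members that WT held at 1 TPM or more, 12 rose and 4 fell.

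**Figure D3:**
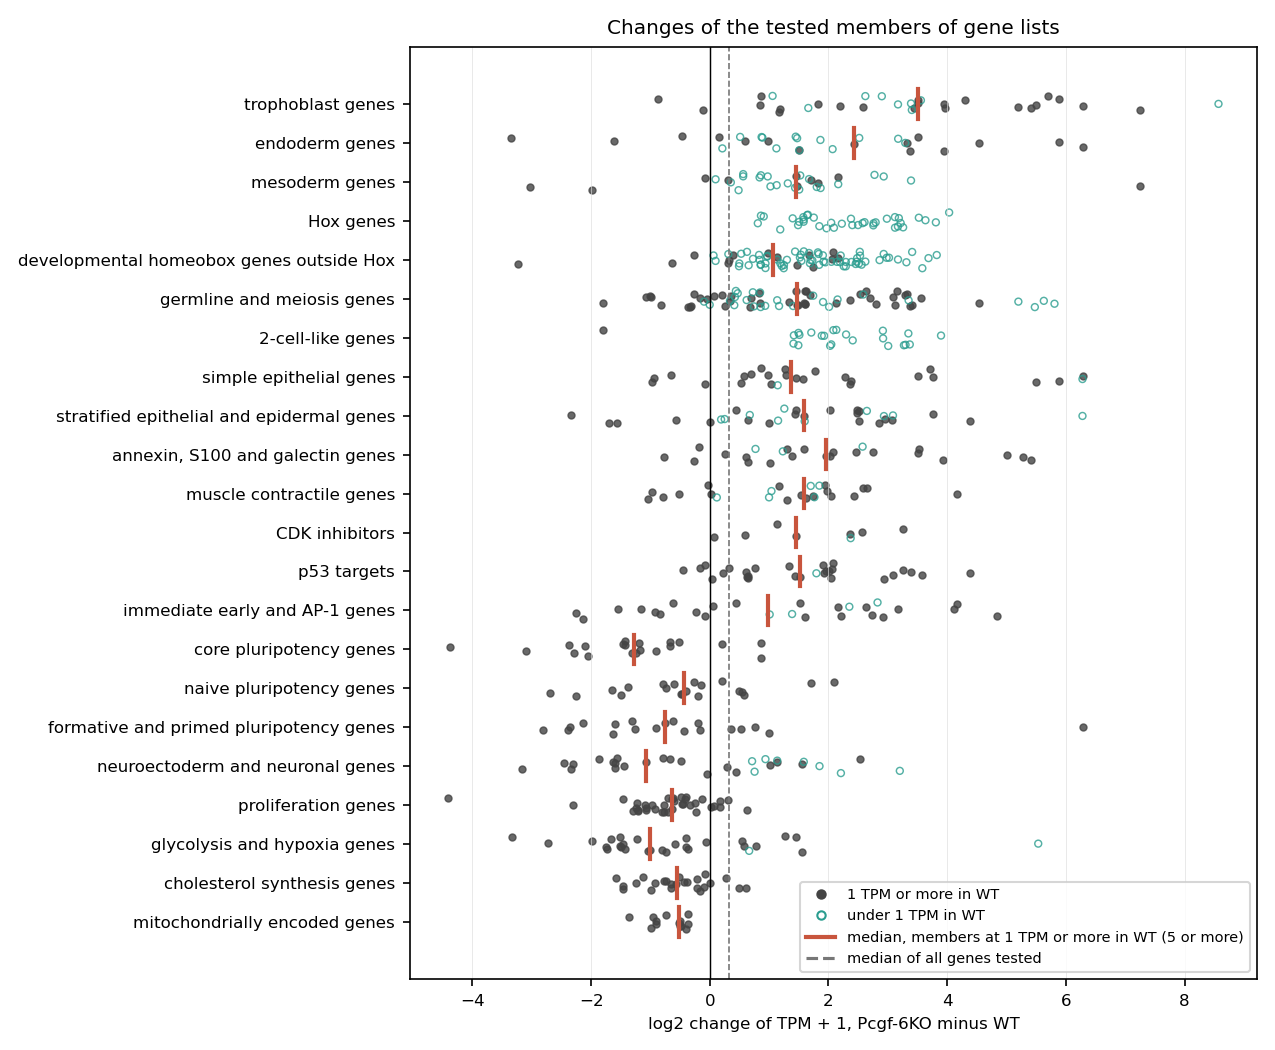
Log2 change (TPM + 1) of each tested member of 22 gene lists in Pcgf-6KO against WT. Filled points are members at 1 TPM or more in WT, open points those below, red bars the median of the filled points where there are at least 5, and the dashed line the median of all genes tested (0.33). Trophoblast, endoderm, epithelial and p53 target genes lie mostly to the right, and pluripotency, proliferation and glycolysis genes mostly to the left.

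Hox genes, the classic PRC1 and PRC2 targets that pattern the body axis, were nearly silent in WT. Their summed level was 2.4 to 2.8 TPM in the WT libraries and 196 to 214 TPM in Pcgf-6KO. All 37 that could be tested, of 39, were called higher, with changes from 0.81 to 4.03, but none was at 1 TPM in WT, and 71% of all genes at that level were called higher. Hoxb9 (ENSMUSG00000020875, chromosome 11, 96271457 to 96276595) was at 0.03, 0.03 and 0.11 TPM in WT and at 16.1, 16.3 and 16.4 TPM in Pcgf-6KO. Hoxa7 reached 15.9, 15.01 and 17 TPM and Hoxb7 12.6, 15.3 and 11.4 TPM. Each of the Hox clusters held genes above 5 TPM and genes below 3 TPM in Pcgf-6KO.

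Of 14 homeobox genes outside the Hox clusters at 1 TPM or more in WT, 11 were called higher and 2 lower (8 and 3 under median ratio scaling). Barx1, Nkx2-9, Msx2 and Dlx2 reached 24.96 ± 1.01, 19.3 ± 1.63, 17.2 ± 0.38 and 10.2 ± 0.16 TPM from under 1 TPM in WT. Gbx2, which is active in embryonic stem cells and later marks hindbrain, fell from 47.5 ± 2.57 to 4.21 ± 0.75 TPM. In the list of Pax, Fox, Sox and T-box factors, Foxf1, Tbx15 and Tbx4 rose to 6.06 ± 0.78, 6.71 ± 0.42 and 14.1 ± 2.44 TPM, and Sox11 fell from 16.9 ± 0.75 to 3.58 ± 0.29 TPM.

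Endoderm genes that WT held at that level were called higher in 11 and lower in 3 of 15 cases, with a median log2 change of 2.43. Several of these (Krt8, Krt18, Col4a1 and Col4a2) are the genes described above. The endoderm factor genes Gata4 and Gata6 were at 0.51 ± 0.04 and 0.1 ± 0.04 TPM in WT and at 13.8 ± 0.81 and 8.95 ± 1.25 TPM in Pcgf-6KO. Apoe fell from 959 ± 8.23 to 314 ± 14.8 TPM. Mesoderm genes gave 7 higher and 2 lower of 10 (median 1.45), and 6 and 4 with quantile normalization (median 0.92). Nkx2-5, a factor gene of the heart, went from 0.26 ± 0.15 to 8.66 ± 1.52 TPM, while Tcf15, a factor gene of paraxial mesoderm and of primed stem cells, fell from 86.05 ± 8.19 to 9.7 ± 1.11 TPM and the endothelial receptor gene Kdr from 6.8 ± 0.17 to 0.97 ± 0.22 TPM. In a bulk library, more cells of a type and more RNA per cell cannot be told apart.

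The sharpest fall was in Trh, the precursor gene of thyrotropin-releasing hormone, at 196, 195 and 196 TPM in WT and at 0.90, 1.09 and 0.84 TPM in Pcgf-6KO (log2 change -6.66 ± 0.09, limma adjusted p = 1.53e-17). Lefty proteins are feedback inhibitors of Nodal, a ligand that embryonic stem cells make and respond to. Lefty1 (ENSMUSG00000038793, chromosome 1, 180935022 to 180938400) was at 188, 191 and 203 TPM in WT and at 5.82, 6.02 and 3.78 TPM in Pcgf-6KO (-4.99 ± 0.12, limma adjusted p = 1.27e-14). The neighbouring gene Lefty2 was at 131, 133 and 142 TPM in WT and at 4.37, 7.01 and 5.46 TPM in Pcgf-6KO. The co-receptor gene of the pathway, Tdgf1, was at 689, 696 and 694 TPM in WT and at 31.1, 32.6 and 33.9 TPM in Pcgf-6KO (-4.37 ± 0.04, limma adjusted p = 3.25e-19). The groups did not overlap for any of the 3. Among Bmp, Gdf and Nodal ligand and antagonist genes, 11 were called higher and 5 lower of 17 at 1 TPM or more in WT, and 9 and 8 with quantile normalization. Bmp1, a procollagen protease gene, rose from 2.31 ± 0.12 to 53.8 ± 4.27 TPM, Bmp8b from 2.94 ± 0.38 to 42 ± 7.4 TPM and Bmp4 from 6.93 ± 0.31 to 25.2 ± 6.24 TPM, while Gdf3, a Nodal-like ligand gene, fell from 82.99 ± 2.84 to 19.3 ± 0.32 TPM.

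Core pluripotency genes, all 20 of them above 1 TPM in WT, were called lower in 17 cases and higher in 3, with a median log2 change of -1.28 (-1.63 under median ratio scaling). Pou5f1 was at 1116, 1101 and 1120 TPM in WT and at 427, 422 and 386 TPM in Pcgf-6KO. Sox2 was at 253, 247 and 240.1 TPM in WT and at 45.9, 45.97 and 48.4 TPM in Pcgf-6KO. Nanog was at 109.5, 110.3 and 104 TPM in WT and at 23.7, 24.1 and 25.5 TPM in Pcgf-6KO. All 3 fell without overlap between the groups, and none was lost. Fgf4, a ligand that primes stem cells, fell from 109.7 ± 4.77 to 11.9 ± 1.16 TPM and L1td1 from 634 ± 16.2 to 129.7 ± 5.54 TPM. The 3 higher genes were Dnmt3l (339 ± 6.16 to 618 ± 22.3 TPM), Dppa2 (83.5 ± 2.36 to 152 ± 6.61 TPM) and Zfp42, whose small rise of 0.21 became -0.15 under median ratio scaling.

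Naive pluripotency genes were called lower in 13 and higher in 6 of 20 (median -0.44), and in 15 and 4 under median ratio scaling (median -0.79). Formative and primed genes were called lower in 12 and higher in 5 of 19 (median -0.75), and in 14 and 3 with quantile normalization (median -1.14). Nr0b1 fell from 73.2 ± 4.68 to 10.6 ± 1.36 TPM, Lifr, the LIF receptor gene, from 14.4 ± 3.53 to 2.32 ± 1.3 TPM, and its feedback target Socs3 from 63.2 ± 0.86 to 19.6 ± 1.07 TPM. Klf4 and Esrrb fell by 0.49 and 0.74 on the log2 scale. Tbx3, a naive factor gene that also acts in endoderm, rose from 3.58 ± 1.58 to 17.9 ± 2.84 TPM. Among formative genes Foxp1 fell from 52.3 ± 0.77 to 6.73 ± 1.45 TPM, Zic5 from 25.4 ± 1.86 to 4.19 ± 0.84 TPM and Etv5 from 191 ± 3.63 to 42.7 ± 5.58 TPM.

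Several genes that write or erase DNA methylation fell. Tet1 (ENSMUSG00000047146, chromosome 10, 62804570 to 62908996), which oxidises methylcytosine and also binds CpG islands, was at 140.3, 142 and 132 TPM in WT and at 13.5, 22.7 and 31.2 TPM in Pcgf-6KO (-2.64 ± 0.18, limma adjusted p = 2.75e-09). The Pcgf-6KO libraries lay far apart for Tet1 but below every WT library. The methyltransferase genes Dnmt3a (101 ± 1.09 to 18.8 ± 4.07 TPM) and Dnmt3b (310.3 ± 7.21 to 100.2 ± 16.6 TPM) and the maintenance factor gene Uhrf1 (177 ± 3.18 to 71.5 ± 10.8 TPM) were also lower. Of 15 genes of the list 8 were called lower and 5 higher, the latter with Mbd2, a reader of methylated DNA, from 10.1 ± 1.89 to 36.4 ± 4.2 TPM.

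Of 21 neural genes that WT held at 1 TPM or more, 14 were called lower and 5 higher (median -1.07, and -1.69 with quantile normalization). Stmn2, a neuronal tubulin regulator gene, was at 162, 165 and 156 TPM in WT and at 17.9, 16.1 and 17.4 TPM in Pcgf-6KO, and Tubb3 fell from 121 ± 3.54 to 23.7 ± 2.03 TPM. The oligodendrocyte factor genes Olig1 and Olig2, neighbours on chromosome 16, fell from 51.5 ± 0.83 to 3.77 ± 0.68 and from 28.7 ± 0.12 to 4.41 ± 0.42 TPM. Zic1, a factor gene of the cerebellum, rose from 0.03 ± 0.036 to 8.5 ± 0.83 TPM.

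Among Wnt ligand and antagonist genes at 1 TPM or more in WT, 1 of 8 was called higher and 5 lower (median -0.55), and 1 and 7 under median ratio scaling. The gene called higher was Wnt7b, a ligand gene of trophoblast and lung, at 1.93, 1.65 and 1.78 TPM in WT and at 38.5, 43.4 and 45.2 TPM in Pcgf-6KO, and Wnt9a, under 1 TPM in WT, rose from 0.69 ± 0.12 to 12.7 ± 0.82 TPM. The antagonist genes Sfrp1 (40.2 ± 1.64 to 7.79 ± 1.15 TPM) and Sfrp2 fell, and so did the ligand gene Wnt5a. Among all genes at that level, 46.7% were called higher and 27.8% lower. Of 8 Fgf ligand genes at that level 4 were called higher and 3 lower, and 2 and 4 under median ratio scaling. Hedgehog and retinoic acid genes gave 4 higher and 6 lower of 13, and 2 and 7 under that scaling. In the Hedgehog pathway the receptor and target genes Ptch1 (21.1 ± 0.71 to 6.92 ± 1.56 TPM) and Gli1 fell. In the retinoic acid pathway, Aldh1a2, which makes retinoic acid, rose from 1.34 ± 0.18 to 10.5 ± 0.98 TPM, and Crabp2, which carries it to the nucleus, fell from 22.9 ± 0.53 to 3.59 ± 1.44 TPM.

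Of 8 CDK inhibitor genes 7 were called higher and Cdkn1b was not called on the deposited scale but lower under median ratio scaling. Cdkn1a (ENSMUSG00000023067, chromosome 17, 29090976 to 29100727), which encodes p21, was at 26.8, 26.4 and 25.8 TPM in WT and at 248, 263 and 273 TPM in Pcgf-6KO (3.26 ± 0.04, limma adjusted p = 7.29e-18). Cdkn2a, a classic PRC1 target that encodes p16 and p19, was at 14.9, 14.6 and 14.1 TPM in WT and at 98.6, 91.9 and 83.2 TPM in Pcgf-6KO. Its neighbour Cdkn2b rose from 3.19 ± 0.23 to 20.5 ± 0.89 TPM. Of 27 p53 targets at 1 TPM or more in WT, 23 were called higher and 1 lower, with a median log2 change of 1.52 (1.17 under median ratio scaling, with 21 higher and 5 lower). Plk2 rose from 13.2 ± 0.53 to 169 ± 17.7 TPM, Btg2, an antiproliferative gene, from 11.6 ± 0.73 to 131 ± 9.21 TPM, and Pmaip1, which encodes the death effector Noxa, from 41.9 ± 1.34 to 180.0 ± 9.37 TPM. Among apoptosis regulators at 1 TPM or more in WT, 16 of 20 were called higher and 4 lower, and 11 and 4 under median ratio scaling, with the protective gene Bcl2l1 up from 31.3 ± 1.65 to 86.6 ± 0.88 TPM.

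Proliferation genes were called lower in 31 and higher in 3 of 37, with a median log2 change of -0.64 (-1.01 under median ratio scaling). Mycn (ENSMUSG00000037169, chromosome 12, 12936093 to 12941914), a Myc family gene, was at 210.3, 209.7 and 213 TPM in WT and at 8.84, 9.23 and 8.94 TPM in Pcgf-6KO (-4.41 ± 0.06, limma adjusted p = 1.53e-17). Ccnd1 fell from 70.4 ± 2.09 to 13.4 ± 1.51 TPM, Mybl2, a partner of E2F in the S phase, from 284 ± 5.04 to 102 ± 8.89 TPM and Mcm3, of the replicative helicase, from 291 ± 9.3 to 119 ± 1.68 TPM. The mitotic genes Aurka and Cdc20 had log2 changes of 0.31 and 0.17 on the deposited scale and of -0.06 and -0.19 under median ratio scaling. Among all genes at 1 TPM or more in WT, 46.7% were called higher and 27.8% lower. Immediate early and AP-1 genes at that level were called higher in 12 and lower in 8 of 22. The genes called higher included Jun (3.67 ± 0.65 to 79.2 ± 4.54 TPM), Fosl1, Atf3 and the matrix signal gene Ccn1 (18.6 ± 0.087 to 559.8 ± 28.3 TPM). The genes called lower included the Fgf and Erk feedback regulators Spry4 (29.1 ± 0.56 to 5.32 ± 0.77 TPM) and Spred1, and the effectors Etv5 and Egr1 (15.9 ± 0.55 to 6.55 ± 0.65 TPM).

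Glycolysis and hypoxia genes at 1 TPM or more in WT were called lower in 20 and higher in 6 of 27 (median -1.01, and -1.38 under median ratio scaling). Their summed level was 15499 to 16179 TPM in WT and 6650 to 6858 TPM in Pcgf-6KO. Pdk1, which keeps pyruvate out of mitochondria, was at 69.3, 70.2 and 70.4 TPM in WT and at 5.12, 5.96 and 7.13 TPM in Pcgf-6KO. Gapdh, named for its abundance after the values were seen, fell from 6265 ± 233 to 2191 ± 47.1 TPM, Ldha from 1223 ± 19.4 to 365 ± 18.9 TPM and the lactate exporter gene Slc16a3 from 169.6 ± 10.8 to 24.99 ± 3.72 TPM. Tdh, the threonine dehydrogenase gene that mouse embryonic stem cells depend on, was at 273, 267 and 273 TPM in WT and at 17.3, 16.4 and 16.4 TPM in Pcgf-6KO (-3.94 ± 0.03, limma adjusted p = 6.45e-20). Cholesterol synthesis genes were lower in 17 and higher in 2 of 24 (median -0.55, and -0.91 under median ratio scaling), with Insig1 from 72.2 ± 1.56 to 23.5 ± 2.31 TPM. Slc7a3, an arginine and lysine carrier gene, fell from 89.9 ± 2.59 to 4.14 ± 0.39 TPM and the proline synthesis gene Aldh18a1 from 36.7 ± 1.93 to 8.32 ± 1.27 TPM. Of the 13 mitochondrially encoded genes 10 were lower and none higher, with a median of -0.52, and the numbers were 7 and none with quantile normalization. Near-identical nuclear copies of these genes exist, so single values are uncertain.

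Of 36 imprinted genes at 1 TPM or more in WT, 18 were called higher and 11 lower, and 15 and 16 under median ratio scaling. These counts set the list little apart from all genes at that level, of which 46.7% were called higher and 27.8% lower. Plagl1, a regulator of the imprinted network, rose from 4.89 ± 0.47 to 42.4 ± 3.75 TPM and Cdkn1c from 52.5 ± 2.94 to 145 ± 12.8 TPM, while Grb10 fell from 74.7 ± 0.72 to 35.02 ± 5.22 TPM and the noncoding gene Rian from 218 ± 7.89 to 98.4 ± 8.44 TPM. Of 18 interferon-stimulated and Ifitm genes at 1 TPM or more in WT, 6 were called higher and 10 lower (median -0.68), and 4 and 12 under median ratio scaling. Ifitm1, a membrane protein gene of pluripotent and germ cells, was at 747, 726 and 809 TPM in WT and at 29.3, 23.6 and 24.5 TPM in Pcgf-6KO. The antigen presentation genes H2-D1 (15.7 ± 0.32 to 109 ± 3.97 TPM), B2m and Tap1 rose. The Zscan4 family marks 2-cell-like cells, which share transcripts with the cleavage-stage embryo. Zscan4f was listed at 0 in all 3 WT libraries and at 13.3, 12.6 and 16.03 TPM in Pcgf-6KO. Of 23 tested, 22 were higher, all 22 under 1 TPM in WT, and members of the Zscan4 family are near-identical, so reads may be split between them.

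Positions in the genome showed a further pattern, looked for after the values were seen. Over 258 genes at 5 TPM or more in WT that lie on chromosome 6 from 75 Mb to the end, the median log2 change was -0.31, against 0.13 for 8752 genes on the other autosomes without chromosome 16, and 53.1% against 31.3% were called lower. Relative to those autosomes, this region was at -0.43, -0.45 and -0.43 in the Pcgf-6KO libraries and between -0.08 and 0.00 in the 15 libraries of the other 5 groups, so Pcgf-6KO stood apart from every other group. The first part of the chromosome was less displaced, at -0.20, -0.18 and -0.13. Several genes named here lie in the distal part, namely Gapdh, Pcgf1, Foxp1, Trh, Phc1, Gdf3 and Nanog, with falls of 1.51 (Gapdh) to 6.66 (Trh) on the log2 scale. Gata2, which rose by 3.39, and Cdkn1b (0.06) lie there too, so genes of the region moved in both directions. Of the 258 genes 61 were called higher. The part of the region in the falls was not tested. Without that region, 9043 of 17380 genes were called higher and 3857 (22.2%) lower.

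Chromosome 16 lay in the other direction. Its 324 genes at 5 TPM or more in WT had a median of 0.44, at 0.28, 0.30 and 0.30 relative to the other autosomes in the Pcgf-6KO libraries. The same value was 0.27 to 0.32 in Ring1a/b-dKO and Pcgf-4KO, 0.20 to 0.24 in Ring1a-KO and -0.24 to -0.21 in Ring1b-KO. Of the genes named here Dppa2, Etv5, Olig1 and Olig2 lie on that chromosome.

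**Figure D4:**
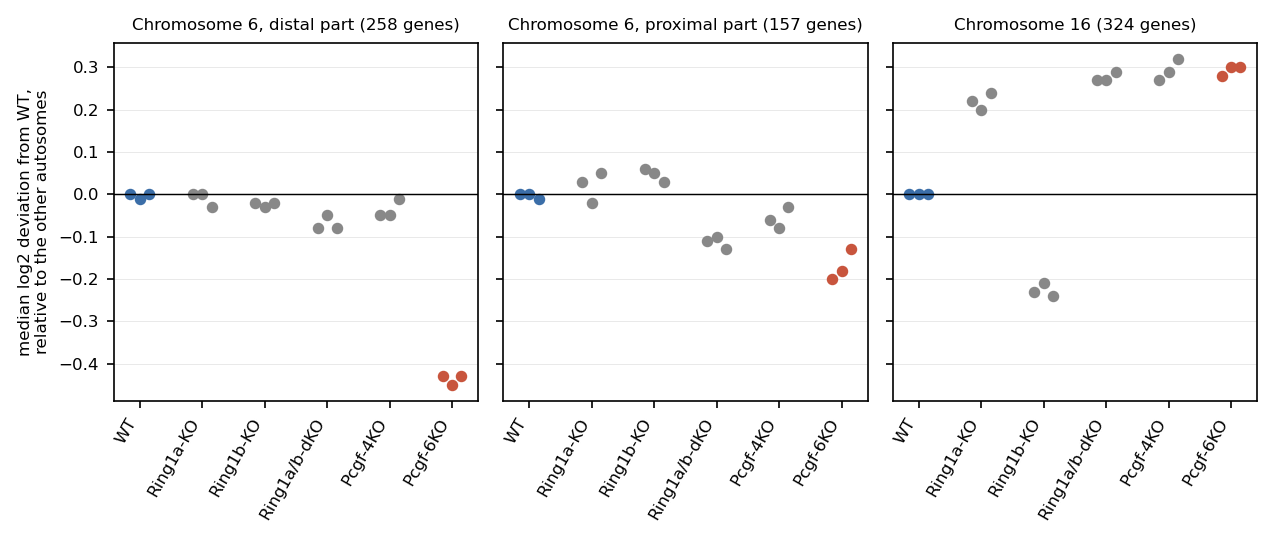
Median log2 deviation from the WT mean of genes at 5 TPM or more in WT, minus the same median over the other autosomes, with 1 point per library for 6 groups of 3. WT libraries lie near 0 by construction. For the distal part of chromosome 6 the Pcgf-6KO libraries lie between -0.45 and -0.43 and all others between -0.08 and 0.00, and chromosome 16 differs between several groups.

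Markers of other cells were partly present in both groups. Of 22 fibroblast markers, 3 were under 0.1 TPM in all WT libraries and 7 at 1 TPM or more in all of them, and in Pcgf-6KO these numbers were 1 and 10. Their sum was 71.6 to 76.0 TPM in WT and 122 to 131 TPM in Pcgf-6KO. Of the 7 at a mean of 1 TPM or more in WT, 5 were called higher and none lower, and 3 and 2 with quantile normalization. Col1a1, Col1a2, Col3a1 and Postn were under 1 TPM in all 6 libraries, Pdgfrb was at 0.13 to 1.27 TPM and Thy1 at 8.06 to 13.4 TPM. Of 29 endothelial and blood genes, 11 were at 1 TPM or more in all WT libraries and 18 in all Pcgf-6KO libraries, with sums of 84.0 to 87.1 and 110 to 136 TPM. The part of such cells in the results was not tested. Of 12 at a mean of 1 TPM or more in WT, 4 were called higher and 5 lower, and 2 and 8 with quantile normalization. Ptprc, of blood cells, and Cdh5, of endothelium, were under 0.1 TPM in all 6 libraries, whereas the endothelial gene Pecam1 was at 19.9 to 30.6 TPM. Csf1r, a receptor gene of macrophages and trophoblast, rose from 0.25 ± 0.38 to 9.43 ± 1.85 TPM. The stem cell markers Pou5f1, Sox2 and Nanog were present in all 6 libraries. Transcripts of the Y-linked genes Ddx3y and Uty were at 16.8 to 19.1 and 6.31 to 7.21 TPM in WT and at 20.1 to 25.9 and 5.49 to 10.3 TPM in Pcgf-6KO, whereas Eif2s3y was at 41.9 ± 1.59 and 13.8 ± 1.36 TPM.

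The Pcgf-6KO libraries differed more among themselves than the WT libraries. The median SD of log2 values was 0.151 against 0.087, and 330 of 11427 genes (2.89%) at a median of 5 TPM or more spanned over 1 log2 unit, against 150 of 10046 (1.49%) in WT. The main fit pooled the spread over all 18 libraries. A fit of the 6 libraries alone called 8734 genes higher and 3704 lower in Pcgf-6KO. The differences within Pcgf-6KO moved with exonic length. Between replicates 1 and 3, genes with at least 6647 exonic bases differed by a median log2 (replicate 3 minus 1) of 0.35 and those with up to 2612 by -0.09, with Pearson r = 0.37 between difference and log2 length over 9259 genes of these 2 libraries. The same comparison of WT replicates 1 and 3 gave -0.01 and 0.00, with r = 0.02. For replicates 1 and 2 and for 2 and 3, r was 0.21 and 0.29 in Pcgf-6KO and 0.11 and -0.08 in WT. The change between the group means was not graded in that way, with a median of 0.17 in the shortest genes and 0.14 in the longest (r = -0.02). The part of length in the spread of single genes such as Tet1 was not tested.

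Pcgf-6KO was also compared directly with Pcgf-4KO, whose label leaves Pcgf2 and Pcgf4 in place. The labels give no parental line, so differences of line and of genotype cannot be told apart in this contrast. Targeted genes that both labels share were not equally low. Pcgf6 was at 0.07, 0 and 0.1 TPM in Pcgf-4KO and 3.46 ± 0.06 log2 units higher in Pcgf-6KO (limma adjusted p = 5.74e-15), and Pcgf1, at 2.58, 0.28 and 0.82 TPM in Pcgf-4KO, was 0.96 ± 0.27 higher (limma adjusted p = 0.00831, and 0.105 in a fit of the 6 libraries alone). Pcgf2 was at 55.3 ± 2.13 TPM in Pcgf-4KO and 1.66 lower in Pcgf-6KO on the log2 scale. In that contrast 5147 genes (28.8%) were called higher in Pcgf-6KO and 4275 (24%) lower, 1368 (7.67%) and 323 (1.81%) of them at least 2-fold. Cryab was 3.81 ± 0.08 log2 units higher in Pcgf-6KO, at 57.7 ± 2.67 TPM in Pcgf-4KO (limma adjusted p = 6.99e-14), Sbsn 3.30, Krt8 2.29 and Krt18 2.02 higher. All 37 Hox genes tested were higher than in Pcgf-4KO, with a median of 1.61, among them Hoxa7 (2.31 TPM in Pcgf-4KO) and Hoxb9 (2.83 TPM). All were under 1 TPM in WT, and 34 of them would pass the filter without the Pcgf-6KO libraries. The share called among all genes at that WT level was not taken for this contrast. Core pluripotency genes were lower in 19 of 20 (median -0.87), with Nanog at 117 TPM and Tet1 at 111 TPM in Pcgf-4KO. Of 71 germline genes 32 were lower than in Pcgf-4KO and 13 higher (median -0.23), and Tex101, Rhox13 and Mageb4 were higher in Pcgf-4KO, by 0.64 to 0.74. Trophoblast genes were higher in Pcgf-6KO in 24 and lower in 4 of 31 cases (median 0.72). All 23 2-cell-like genes were higher (median 1.63), 22 of them under 1 TPM in WT. Of the 23, 20 would pass the filter without the Pcgf-6KO libraries.

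Against Ring1a/b-dKO, in which the catalytic subunits are the labelled loss, 5055 genes (28.3%) were called higher in Pcgf-6KO and 5286 (29.6%) lower, 1366 (7.66%) and 671 (3.76%) at least 2-fold. H19 was at 4.75 TPM in Ring1a/b-dKO and 6.42 ± 0.10 log2 units higher in Pcgf-6KO (limma adjusted p = 1.13e-15), and Fkbp6 was at 2.38 TPM there and 4.22 higher. Trophoblast genes were higher in 21 and lower in 4 of 31 (median 0.71), and 22 of 23 2-cell-like genes were higher, much as against Pcgf-4KO. All 22 were under 1 TPM in WT, and 19 of them would pass the filter without the Pcgf-6KO libraries. Homeobox genes outside the Hox clusters were lower than in Ring1a/b-dKO in 47 of 78 cases and higher in 7 (median -0.47). Of 37 Hox genes 11 were higher, 9 lower and 17 not called (median 0.17), so their counts were near the shares of all genes tested. Proliferation genes were lower than in both other groups, in 33 of 37 cases in each contrast, with medians of -0.46 and -0.50. Mid1, a ubiquitin ligase gene on the X chromosome, was at 56.1 TPM in Pcgf-6KO and 62.5 TPM in WT but at 1.32 TPM in Pcgf-4KO and 1.5 TPM in Ring1a/b-dKO. Ddx3y was at 0.023 and 0.020 TPM in those groups. All 6 Y-linked genes tested were higher in Pcgf-6KO than in Pcgf-4KO and in Ring1a/b-dKO (medians 2.45 and 2.44). A difference of line and one of genotype cannot be told apart in either contrast.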

How the data were processed

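Total RNA of mouse embryonic stem cells had been sequenced in 18 libraries, 3 of each of 6 genotypes, per the labels. The authors deposited TPM per gene. RSEM, edgeR, TopHat2 2.1.1 and the build GRCm38.p5 appear in the submitters' processing notes. How each was used is not given in the sources used here. Gene symbols and GRCm38 positions came from GENCODE vM21, and 927 tested genes had no symbol. Genes that reached 1 TPM in 3 or more libraries were tested on log2(TPM + 1), which understates changes of low genes. limma 3.58.1 in R 4.3.3 fitted 1 mean per group to all 18 libraries (12 residual degrees of freedom, trended empirical Bayes), with two-sided tests and Benjamini-Hochberg adjustment over all 17842 genes in each contrast. Calls were made at an adjusted p below 0.05. The procedure was tested on simulated data with the same spread of a gene in every group. It thus did not test the effect of the wider spread of Pcgf-6KO. Alternatives were other pseudocounts, filters and scalings, fewer libraries, group weights, a replicate block and leaving out each library.

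The comparison and the gene lists were chosen with earlier results of these data known. Named genes are the targeted genes and catalytic subunits, the 15 largest rises and falls at 5 TPM or more without overlap, up to 4 rises and 4 falls per list, a set of stem cell and lineage genes, the widest-ranging genes, and the largest differences from Pcgf-4KO and Ring1a/b-dKO. The rankings of rises, falls and differences left out genes with placeholder symbols, such as Gm or Rik names. Genes named otherwise, such as defining markers of other cells, were chosen by their known role or after their values were seen. Some genes of this rule are not reported here. Promoter windows came from RefSeq (GRCm38.p6).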

Additional observations from a re-analysis of the deposited data

How the results depend on the processing

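Of 185 named results that were called, 180 kept their call and direction under every alternative run. With a pseudocount of 5, 1965 genes were at least 2-fold higher and 577 lower than in WT, 581 and 113 against Pcgf-4KO, and 591 and 186 against Ring1a/b-dKO. With a pseudocount of 0.1, those at least 2-fold lower numbered 625 and 1331 in the latter contrasts. Median ratio scaling gave 6318 genes lower than in WT, 1964 of them 2-fold. Quantile normalization gave 6009 higher and 6893 lower, 2474 and 2288 of them 2-fold, and 518 genes 2-fold lower than in Pcgf-4KO. Among nuclear protein-coding genes, 708 were 2-fold higher than in Pcgf-4KO and 733 than in Ring1a/b-dKO. That setting tested fewer genes and also rescaled TPM to them. Signs reversed under median ratio scaling for Rnf2 (-0.22), Cbx7 (-0.29), Zfp42 (-0.15), Cdkn1b (-0.28), Aurka (-0.06), Cdc20 (-0.19), Ddx3y (-0.08) and Uty (-0.20), and with quantile normalization for Ring1 (-0.03), Rnf2 (-0.09), Zfp42 (-0.04), Cdkn1b (-0.35), Ddx3y (-0.06) and Uty (-0.37). Leaving out 1 library gave -0.24 to 0.03 for Pcgf3, -0.05 to 0.24 for Cbx7 and -0.08 to 0.32 for Uty, the ends coming from Pcgf-6KO replicates 3 and 1. Beyond the scalings themselves, the cause was not tested.

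No pairing by replicate number was seen between WT and Pcgf-6KO, whose same-numbered deviations correlated at -0.007, -0.026 and -0.023. Those of Pcgf-4KO and Pcgf-6KO correlated at 0.043, 0.048 and 0.019. Such values cannot tell whether same-numbered libraries were prepared together. A replicate block gave 9193 genes higher and 4011 lower and changed the call of 0 named genes. The region of chromosome 6 was set apart after seeing the data. Without read counts, the depth behind low values is unknown.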
